A study of Bos taurus with 6 samples.

Results

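Growth factor receptors act on cells through RAS, RAF, MEK and the kinase ERK, and ERK in turn raises the transcription of genes whose products switch the cascade off again. Among those products are 3 families. Dual-specificity phosphatases (DUSP) take phosphate off ERK itself, Sprouty proteins (SPRY) act between receptor and RAF, and the Sprouty-related SPRED proteins bring the RAS-inactivating protein neurofibromin to the membrane. In the mouse mammary gland, ligands of the EGF receptor acting on this cascade drive ductal growth. The genes described here are 10 members of these families, DUSP1, DUSP4, DUSP5, DUSP6, DUSP7, SPRY1, SPRY2, SPRY4, SPRED1 and SPRED2. They were found by symbol among 28200 rows of the deposited count table, and each symbol stood on 1 row.

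The cells were primary epithelial cells of the Holstein mammary gland, obtained by tissue culture and enzyme digestion. The groups are 3 libraries in which the gene of the zinc-finger transcription factor KLF6 had been disrupted with CRISPR/Cas9, and 3 wild-type libraries. The labels call the knockout complete. They do not give the guide, do not say whether the edited cells were 1 clone or a pool, and do not say whether the wild-type cells went through the same handling. Nor do they state that replicate libraries were grown separately, so the spread behind each p-value may be technical.

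Levels are given as CPM, counts per 1000000 counts of the library after TMM scaling, edgeR's correction for differences in library composition. Library totals lay between 1.75e+07 and 1.87e+07 counts. KLF6 RNA stood at 224, 230 and 217 CPM in the knockout libraries, against 503, 496 and 558 CPM in the wild-type libraries (log2 fold change -1.21 ± 0.05, SE). Wild-type replicate 3 stood apart from its group, its counts differing from those of replicates 1 and 2 with 9.07 and 9.22 times the variance that counting alone gives. For the remaining pairs of replicates this ratio was 2.27 to 2.96. Each of the 10 genes kept its call without that library, and SPRED1, which moved most, had a log2 fold change of 0.51 without it, against 0.42 with it. The epithelial markers were present: KRT8 averaged 2450 ± 62.2 CPM in knockout libraries and 7564 ± 527 CPM in wild-type libraries, KRT5 2018 ± 34.1 and 4679 ± 67.3 CPM, and EPCAM 167 ± 5.35 and 165 ± 10.6 CPM (SD, n = 3 each). The leukocyte marker PTPRC and the adipocyte marker ADIPOQ had 0 reads in all 6 libraries. Summed over the 8 fibroblast markers listed, levels ran from 245 to 258 CPM in knockout libraries and from 1054 to 1250 CPM in wild-type libraries. DCN made up most of that sum, averaging 229 ± 6.27 CPM in knockout libraries, against 1134 ± 106 CPM in wild-type ones, while COL1A2 went the other way, with 278 reads in the knockout libraries and 0 in the wild-type ones. COL1A1 fell (log2 fold change -0.46 ± 0.18). Over the 5 endothelial markers the sums ran from 30.8 to 32.6 CPM in knockout libraries and from 4.50 to 5.79 CPM in wild-type libraries. PECAM1 alone was higher there, averaging 31.3 ± 0.886 CPM in knockout libraries, against 0.219 ± 0.0941 CPM in wild-type ones. VWF and TEK fell (log2 fold changes -3.85 ± 0.31 and -2.31 ± 0.45), CDH5 had 1 read in the knockout and 18 in wild type, and KDR had 0 reads in all 6 libraries. The 5 leukocyte markers summed to 17.1 to 19.8 CPM in knockout libraries and 9.71 to 11.1 CPM in wild-type libraries, and the 5 adipocyte markers to 6.08 to 8.58 CPM and 2.77 to 3.61 CPM. Of the 2 leukocyte markers tested, AIF1 rose, averaging 14.5 ± 1.08 CPM in knockout libraries and 5.98 ± 0.359 CPM in wild-type ones. CD68 did not pass the test, at 3.25 ± 0.235 and 4.09 ± 0.446 CPM. Of the 2 adipocyte markers tested, CIDEC rose (4.28 ± 0.0804 and 1.08 ± 0.156 CPM) and PLIN1 did not pass the test. The 5 luminal markers summed to 3909 to 4066 CPM in knockout libraries, against 10780 to 12115 CPM in wild-type libraries, and the 5 basal markers to 3912 to 3967 CPM, against 7010 to 7141 CPM. Of the basal markers 4 fell, and KRT14 rose to 515 ± 9.91 CPM in knockout libraries, against 304 ± 24.0 CPM in wild-type libraries. The part of these cell type markers in the results below was not tested.

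The feedback genes did not move in 1 direction. DUSP4, SPRY1, SPRY4 and DUSP1 fell in KLF6 knockout libraries to between 0.322 and 0.518 of their wild-type level, DUSP5 rose 2.17-fold, and DUSP6, the most abundant of them in the knockout, rose 1.27-fold. SPRED1 rose and SPRED2 fell, both by less than 1.5-fold, and SPRY2 did not pass the test. In all, 3 of the 10 genes rose and 6 fell (edgeR quasi-likelihood test, Benjamini-Hochberg adjusted p under 0.05 over 13390 genes). This is 90% of the genes, beside 74.6% of all genes tested, with 37.1% higher and 37.6% lower. At a change of at least 2-fold, 1 gene rose and 3 fell, beside a background of 10.8% higher and 11.5% lower. Of the 3 that fell, SPRY4 lay at this cutoff, with a log2 fold change of -1.01 in this fit and -0.998 by DESeq2. The median log2 fold change of the 10 genes was -0.31, and that of all genes tested was -0.01. The CPM of the 2 genotypes did not overlap for 9 of the 10 genes, as for 76.2% of all genes tested. In bulk RNA, fewer cells of a type and less RNA per cell cannot be told apart.

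**Figure D1:**
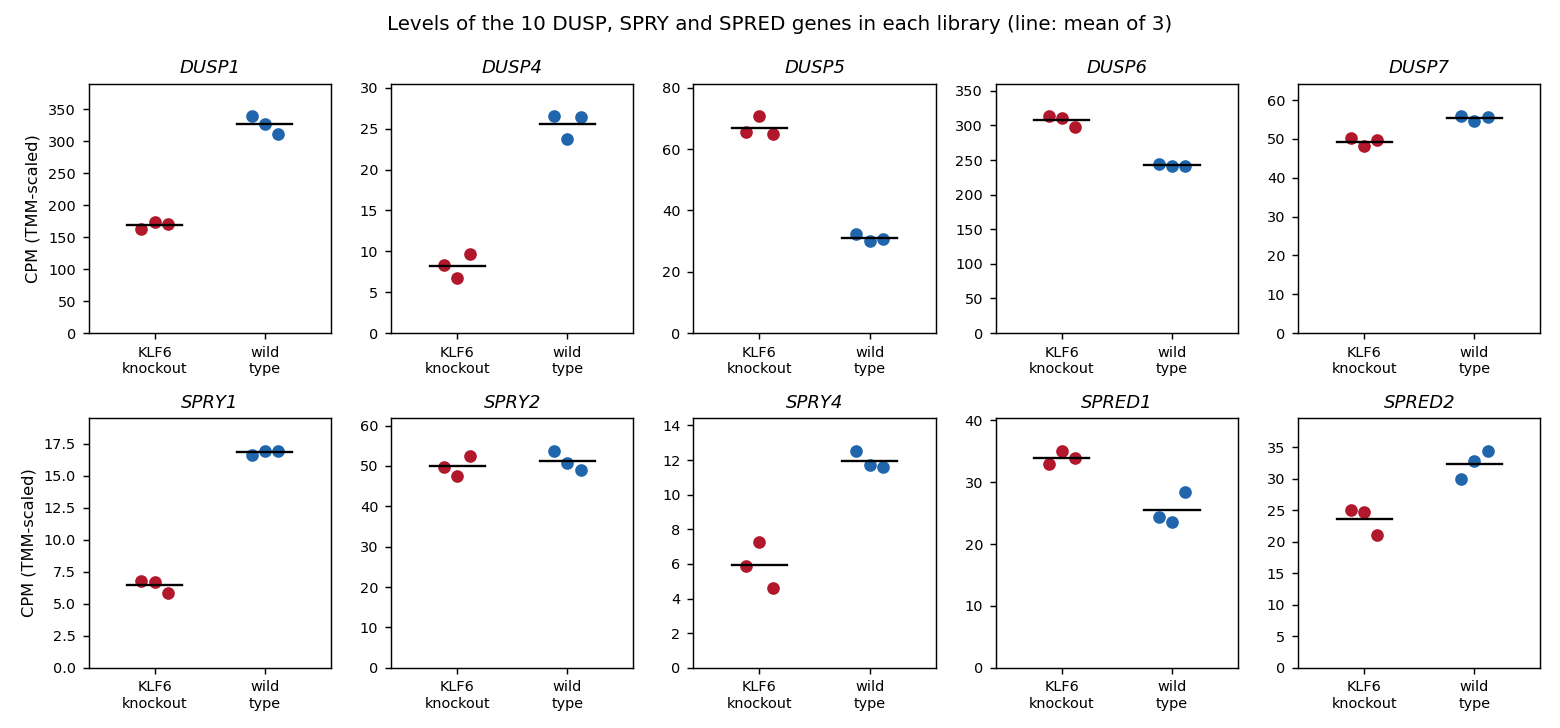
Level of each of the 10 genes (vertical axes, TMM-scaled CPM, each from 0) in the 3 KLF6 knockout libraries and the 3 wild-type libraries (1 point per library, line at the mean). The points of the genotypes lie apart for every gene except SPRY2, with DUSP5, DUSP6 and SPRED1 higher in the knockout.

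DUSP1, DUSP4 and DUSP5 encode the phosphatases that act in the nucleus. DUSP1 (ENSBTAG00000013863, chromosome 20, 4540518 to 4543611, coordinates as in the count table, whose build the sources used here do not name) is an immediate-early gene, and its product acts on p38 and JNK as well as ERK. It stood at 164, 173 and 171 CPM in knockout libraries, against 339, 328 and 312 CPM in wild-type libraries. The 2 genotypes were far apart beside a spread of 5.0 CPM (SD) in the knockout and 13.8 CPM in wild type. DUSP1 fell 1.93-fold, with a log2 fold change of -0.95 ± 0.05 (95% interval -1.05 to -0.85, adjusted p = 2.49e-12).

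DUSP4 (ENSBTAG00000044208, chromosome 27, 25679478 to 25693390) encodes a nuclear phosphatase of ERK and JNK. Its level was 8.26, 6.74 and 9.70 CPM in knockout libraries, against 26.5, 23.8 and 26.4 CPM in wild-type libraries. Of the 10 genes DUSP4 had the largest change in these fits, a 3.11-fold fall (log2 fold change -1.64 ± 0.11, 95% interval -1.87 to -1.40, adjusted p = 2.67e-10). The knockout value rests on 442 reads over 3 libraries and the wild-type value on 1398. Among all genes tested, 10.6% changed at least as much.

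DUSP5 (ENSBTAG00000020283, chromosome 26, 31062738 to 31075701) encodes the nuclear phosphatase that acts on ERK and not on the stress kinases. It went the other way, with 65.5, 70.8 and 64.9 CPM in knockout libraries, against 32.3, 29.95 and 30.6 CPM in wild-type libraries. Every knockout library held over 2 times the scaled reads of every wild-type library. The log2 fold change was 1.12 ± 0.06 (95% interval 0.98 to 1.25, adjusted p = 2.07e-11), and 19.02% of all genes tested changed at least as much. The median change of the 265 genes tested on chromosome 26 was 0.45. DUSP5 stood 0.67 above that median, against 1.12 above 0, and the part of the chromosome-wide shift in its rise was not tested.

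Per kilobase of gene model, which allows levels of different genes to be compared, DUSP4 and DUSP5 were at nearly the same level in wild type and far apart in the knockout. DUSP4 averaged 3.59 ± 0.645 CPM per kilobase in knockout and 11.2 ± 0.679 in wild-type libraries, and DUSP5 averaged 25.8 ± 1.25 in knockout and 11.9 ± 0.475 in wild-type libraries (SD, n = 3 each). The ratio of DUSP4 to DUSP5 was 0.143, 0.108 and 0.170 in knockout libraries, against 0.931, 0.901 and 0.980 in wild-type libraries. The pair was chosen because its members moved in opposite directions, so the ratio is a description, with no test.

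DUSP6 and DUSP7 encode phosphatases of the cytoplasm that prefer ERK. DUSP6 (ENSBTAG00000004587, chromosome 5, 19213683 to 19217415) is itself a widely used readout of ERK activity. It stood at 313, 310 and 298 CPM in knockout libraries, against 244, 242 and 242 CPM in wild-type libraries. The rise was small and clear of the spread, with a log2 fold change of 0.34 ± 0.04 (95% interval 0.25 to 0.43, adjusted p = 9.75e-07). DUSP6 had the deepest counts in the knockout, with 5343 to 5709 reads in a knockout library and 4329 to 4514 in a wild-type library. Of all genes tested, 64.0% changed at least as much.

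DUSP7 (ENSBTAG00000021912, chromosome 22, 48825120 to 48832342) was at 50.3, 48.1 and 49.6 CPM in knockout libraries, against 55.9, 54.7 and 55.7 CPM in wild-type libraries. The genotypes did not overlap, but they differed by only 1.12-fold. The log2 fold change was -0.17 ± 0.06 (95% interval -0.29 to -0.05, adjusted p = 0.0127). DESeq2 did not call it (-0.15, adjusted p = 0.0631), nor did edgeR without knockout replicate 2 (-0.15, adjusted p = 0.0628). Over the alternatives that test for any change the adjusted p ran from 0.00215 to 0.0631. DUSP7 is not in the authors' deposited table, which lists only genes up to an adjusted p-value of 0.05. Where that table lists a feedback gene, its log2 fold change equals that of the DESeq2 run here, so the absence is not separate evidence.

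DUSP1 and DUSP6 held most of the phosphatase RNA and changed places between the genotypes. Of the summed per-kilobase level of the 5 DUSP genes, DUSP6 made up 53.1 ± 1.01% in knockout and 36.4 ± 0.710% in wild-type libraries, and DUSP1 30.3 ± 0.893% and 50.7 ± 0.978% (SD, n = 3 each). The ratio of DUSP1 to DUSP6 was 0.541, 0.578 and 0.595 in knockout libraries, against 1.44, 1.41 and 1.34 in wild-type libraries, so it was below 1 in each knockout library and above 1 in each wild-type library. The share of DUSP7 was 5.79 ± 0.193% in the knockout and 5.63 ± 0.139% in wild type. The sum of the 5 genes was 274 ± 3.82 CPM per kilobase in knockout and 317 ± 7.70 in wild-type libraries.

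The Sprouty genes encode membrane-associated inhibitors that become tyrosine-phosphorylated after growth factors bind their receptors. SPRY1 (ENSBTAG00000021245, chromosome 17, 34353125 to 34357245) stood at 6.77, 6.69 and 5.85 CPM in knockout libraries, against 16.6, 16.9 and 16.9 CPM in wild-type libraries. It fell 2.61-fold (log2 fold change -1.39 ± 0.11, 95% interval -1.61 to -1.16, adjusted p = 1.35e-09). Of all genes tested, 13.5% changed at least as much.

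SPRY4 (ENSBTAG00000008250, chromosome 7, 53339584 to 53351162), another inhibitor of the family, was at 5.85, 7.29 and 4.63 CPM in knockout libraries, against 12.5, 11.7 and 11.6 CPM in wild-type libraries. The knockout libraries varied most for this gene, with an SD of 22.5% of the mean and 83 to 134 reads a library, yet all lay below the wild-type libraries. SPRY4 fell 2.01-fold (log2 fold change -1.01 ± 0.14, 95% interval -1.31 to -0.71, adjusted p = 3.72e-06), and from -1.19 to -0.86 with a library left out.

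SPRY2 (ENSBTAG00000001774, chromosome 12, 55341982 to 55343875) differed from both. It stood at 49.8, 47.6 and 52.5 CPM in knockout libraries, against 53.7, 50.9 and 49.1 CPM in wild-type libraries, and the genotypes overlapped. Its log2 fold change was -0.04 ± 0.06 (adjusted p = 0.619), and the 95% interval of -0.17 to 0.10 leaves out changes of the size seen for SPRY1 and SPRY4. The 230 genes tested on chromosome 12 had a median of -0.43, so SPRY2 stood 0.39 above its chromosome. Within 1 Mb of SPRY2, however, the 4 genes tested had a median of 0.59, with 2 higher and 2 lower. The share of SPRY2 in the summed per-kilobase level of the 3 Sprouty genes was 82.3 ± 2.87% in knockout and 67.4 ± 0.730% in wild-type libraries. SPRY3, the remaining Sprouty gene, had 0 reads in all 6 libraries.

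The 2 SPRED genes moved in opposite directions. SPRED1 (ENSBTAG00000032518, chromosome 10, 33847959 to 33966943) was at 32.9, 35.1 and 34.0 CPM in knockout libraries, against 24.3, 23.5 and 28.5 CPM in wild-type libraries. It rose 1.34-fold (log2 fold change 0.42 ± 0.08, 95% interval 0.25 to 0.59, adjusted p = 0.000135). Wild-type replicate 3 was the highest of its group and still below every knockout library. The median change on chromosome 10 was -0.28 over 606 genes, against which SPRED1 stood 0.70 higher.

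SPRED2 (ENSBTAG00000019456, chromosome 11, 63679273 to 63801394) was at 25.02, 24.8 and 21.0 CPM in knockout libraries, against 29.97, 32.8 and 34.4 CPM in wild-type libraries. It fell 1.37-fold (log2 fold change -0.46 ± 0.08, 95% interval -0.63 to -0.28, adjusted p = 8.75e-05). The ratio of SPRED1 to SPRED2 per kilobase was 1.06, 1.14 and 1.31 in knockout libraries, against 0.656, 0.579 and 0.668 in wild-type libraries. Their sum was 16.0 ± 0.740 CPM per kilobase in knockout and 16.6 ± 1.26 in wild-type libraries, a difference within 1 SD. SPRED3 averaged 4.0 ± 0.930 CPM in the knockout libraries and 2.52 ± 0.628 CPM in the wild-type ones. It rose (0.66 ± 0.22, adjusted p = 0.0116), but not without knockout replicate 3 (0.46, adjusted p = 0.0974) or without wild-type replicate 1 (0.50, adjusted p = 0.0629), with an adjusted p of 0.00156 to 0.0974 over the alternatives that test for any change.

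**Figure D2:**
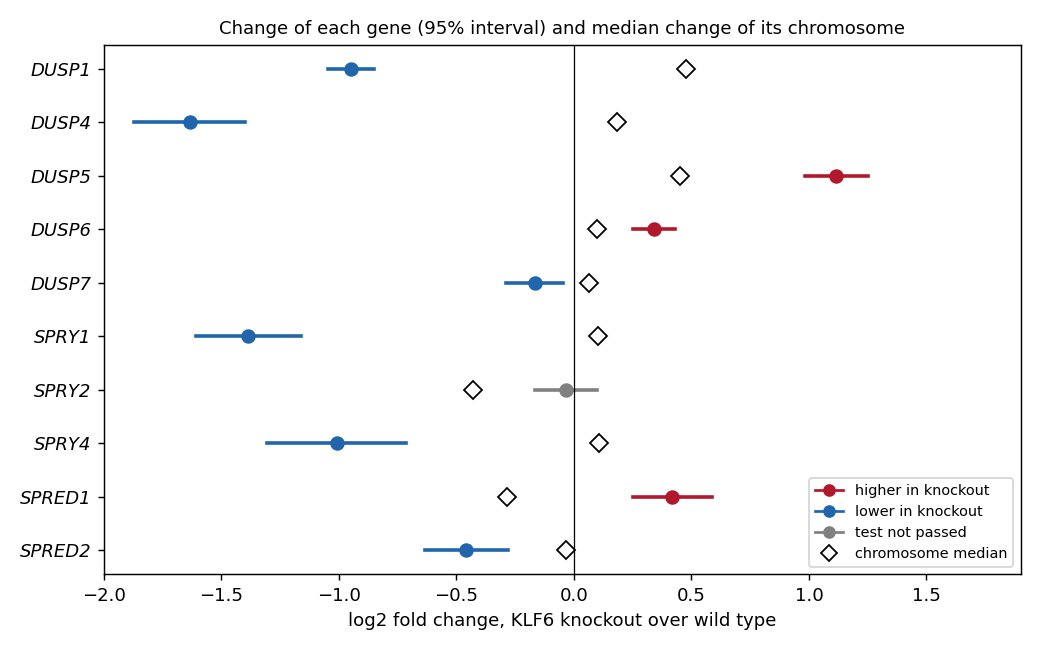
Log2 fold change of KLF6 knockout over wild type for each gene (points, with 95% intervals from the edgeR fit) and the median log2 fold change of all genes tested on its chromosome (open diamonds). DUSP1 lies at -0.95 on a chromosome with a median of 0.48, and SPRED1 at 0.42 on a chromosome with a median of -0.28.

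Each of the 10 genes lies on a different chromosome, and several of those chromosomes were shifted as a whole. DUSP1 fell although the 218 genes tested on chromosome 20 had a median of 0.48, with 149 higher and 28 lower, so relative to its chromosome it stood at -1.43. SPRY1 and SPRY4 lie on chromosomes with medians of 0.10 and 0.11, and DUSP4 on one with 0.18. With the chromosome's median taken away, the 9 called genes kept their direction, between -1.82 for DUSP4 and 0.70 for SPRED1. That value is a description without a test. In the file's coordinates the rows that overlapped any of the 10 were Rfam entries at SPRY4 and SPRED1, with 0 to 4 reads each.

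The order of the per-kilobase levels changed at the top, in the middle and at the bottom. In the knockout it ran from DUSP6 (146 ± 3.93) and DUSP1 (83.2 ± 2.46) through SPRY2 (26.4 ± 1.304), DUSP5 (25.8 ± 1.25), DUSP7 (15.9 ± 0.355), SPRED1 (8.59 ± 0.276) and SPRED2 (7.39 ± 0.704) to DUSP4 (3.59 ± 0.645), SPRY4 (2.92 ± 0.657) and SPRY1 (2.75 ± 0.217). There the libraries of SPRY2 and DUSP5 overlapped, as did those of DUSP4 and SPRY4, and those of SPRY4 and SPRY1. In wild type it ran from DUSP1 (161 ± 6.76) and DUSP6 (115 ± 0.642) through SPRY2 (27.0 ± 1.24), DUSP7 (17.8 ± 0.214), DUSP5 (11.9 ± 0.475), DUSP4 (11.2 ± 0.679) and SPRED2 (10.1 ± 0.707) to SPRY1 (7.18 ± 0.0843), SPRED1 (6.43 ± 0.671) and SPRY4 (5.90 ± 0.251). The libraries of DUSP5 and DUSP4 overlapped there, as did those of DUSP4 and SPRED2, of SPRY1 and SPRED1, and of SPRED1 and SPRY4.

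**Figure D3:**
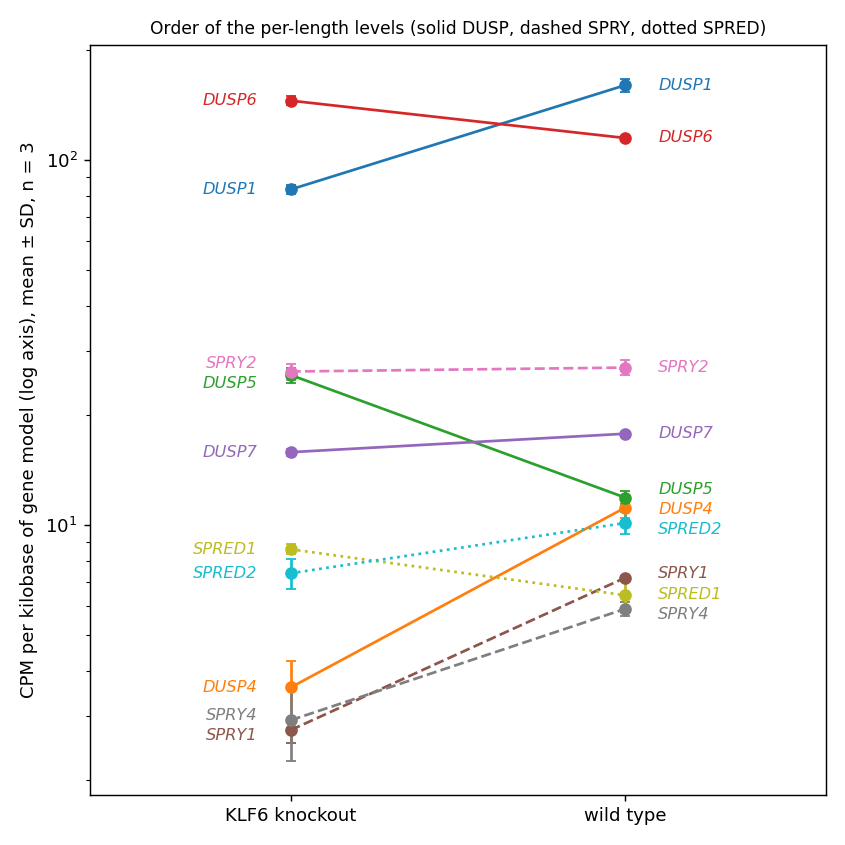
Mean CPM per kilobase of gene model (log axis, bars are the SD of 3 libraries) of each gene in KLF6 knockout and wild-type libraries, with lines joining the means of a gene. DUSP1 and DUSP6 cross at the top, DUSP5 is at 25.8 in the knockout and 11.9 in wild type, and DUSP4, SPRY1 and SPRY4 form the lowest 3 in the knockout.

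The authors' deposited table lists 8 of the 10 genes, without DUSP7 and SPRY2. In the authors' deposited table the log2 fold changes, knockout over wild type, were -0.93 for DUSP1, -1.62 for DUSP4, 1.13 for DUSP5, 0.35 for DUSP6, -1.37 for SPRY1, -0.998 for SPRY4, 0.43 for SPRED1 and -0.44 for SPRED2. DESeq2 run here on the same counts gave the same log2 fold changes for these 8 genes, so the authors' values are not separate evidence.

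Of 12 further dual-specificity phosphatases tested, 4 rose and 2 fell, which is 50% called beside 74.6% of all genes, with a median log2 fold change of -0.02. DUSP18, an atypical phosphatase, averaged 20.6 ± 1.49 CPM in knockout libraries and 6.31 ± 1.18 CPM in wild-type libraries (1.70 ± 0.12, adjusted p = 5.23e-10). DUSP10, which acts on p38 and JNK, averaged 10.8 ± 0.559 and 5.26 ± 0.500 CPM (1.05 ± 0.13, adjusted p = 5.55e-07), and DUSP14 rose as well (0.64 ± 0.08). DUSP28 (-1.04 ± 0.09) and DUSP3 (-0.54 ± 0.06) fell. DUSP8 and DUSP16, which prefer the stress kinases, had log2 fold changes of -0.04 and 0.09 and did not pass the test.

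Other proteins that restrain RAS or ERK went both ways, with 7 genes that rose and 6 that fell among 14 tested (median 0.11), which is 92.9% called beside 74.6% of all genes. CBLB, a ubiquitin ligase of activated receptors, was at 6.54, 5.27 and 5.46 CPM in knockout libraries, against 23.0, 23.4 and 20.6 CPM in wild-type libraries (-1.96 ± 0.11, adjusted p = 1.76e-11). IL17RD, also called SEF and known as a feedback inhibitor of FGF signalling, averaged 4.27 ± 0.823 CPM in knockout libraries and 10.1 ± 1.28 CPM in wild-type libraries (-1.24 ± 0.15). The RAS GTPase-activating protein gene DAB2IP fell (-0.90 ± 0.08), while PEA15, which holds ERK in the cytoplasm, and RASAL2 rose (0.38 ± 0.06 and 0.34 ± 0.07). PEA15 overlaps DCAF8 on the opposite strand in the file, and strand use in the counting is not stated. NF1, the partner of the SPRED proteins, had a log2 fold change of -0.60 ± 0.14 (adjusted p = 0.00113), and was named after its value was seen.

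Upstream, most of the receptor genes that could be tested were lower in the knockout. Of 8 receptor tyrosine kinases tested, 6 fell and 1 rose, with a median log2 fold change of -0.98, which is 87.5% called beside 74.6% of all genes, and 37.6% of all genes fell. ERBB3, a partner of ERBB2 that binds neuregulins, was at 13.1, 10.5 and 10.6 CPM in knockout libraries, against 73.5, 77.8 and 74.5 CPM in wild-type libraries (-2.72 ± 0.08, adjusted p = 2.17e-15). PDGFRA (-1.501 ± 0.10), which is also a fibroblast marker, and FGFR3 (-1.32 ± 0.12) fell. FGFR2, the receptor of epithelial cells for several FGF ligands, rose to 64.3 ± 1.57 CPM in knockout libraries, against 35.1 ± 2.19 CPM in wild-type libraries (0.87 ± 0.06). FGFR2 lies on chromosome 26, like DUSP5, and stood 0.42 above that chromosome's median.

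Within the cascade itself 10 of 22 genes rose and 10 fell, with a median of -0.07, which is 90.9% called beside 74.6% of all genes. RPS6KA2, a kinase activated by ERK, was at 16.7, 13.5 and 15.9 CPM in knockout libraries, against 1.58, 2.63 and 3.28 CPM in wild-type libraries (2.61 ± 0.18, adjusted p = 6.28e-10). ARAF, a RAF kinase, averaged 729 ± 18.2 CPM in knockout libraries and 399 ± 26.8 CPM in wild-type libraries (0.87 ± 0.05), and the scaffold gene KSR1, with 108 reads in knockout and 54 in wild-type libraries, rose (1.02 ± 0.32, adjusted p = 0.00867). The genotypes overlapped for KSR1. In edgeR fits with a library left out, its log2 fold change ran from 0.79 to 1.52 and its adjusted p reached 0.0472. MAPK3, which encodes ERK1, averaged 48.0 ± 1.01 CPM in knockout libraries and 109 ± 4.17 CPM in wild-type libraries (-1.18 ± 0.05). MKNK2, a kinase downstream of ERK and p38, and SOS2, a RAS exchange factor, fell as well (-1.49 ± 0.05 and -0.85 ± 0.10).

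The list of JNK and p38 kinases, on which DUSP1 also acts, and of the kinases that activate them had 2 genes that rose and 5 that fell among 9 tested (median -0.27), which is 77.8% called beside 74.6% of all genes. The p38 genes MAPK11, MAPK13 and MAPK14 fell by 1.57 ± 0.22, 1.24 ± 0.07 and 0.27 ± 0.06 on the log2 scale. The JNK genes MAPK8 and MAPK9 had log2 fold changes of -0.10 ± 0.10 and -0.01 ± 0.11 and did not pass the test. Among the activating kinases, MAP2K7 fell (-0.56 ± 0.07), and MAP2K3 and MAP2K4 rose (0.36 ± 0.06 and 0.19 ± 0.05). MAP2K6 fell (-0.92 ± 0.30, adjusted p = 0.0102), but not by DESeq2 (-0.91, adjusted p = 0.0730), with 0.00729 to 0.0730 over the alternatives that test for any change.

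Other transcripts known to be induced by ERK were split too, with 5 that rose and 9 that fell among 18 tested (median -0.12), which is 77.8% called beside 74.6% of all genes. The immediate-early gene EGR1 stood at 43.8, 45.6 and 43.5 CPM in knockout libraries, against 204, 202 and 195 CPM in wild-type libraries (-2.18 ± 0.05, adjusted p = 5.40e-17). FOS averaged 231 ± 1.14 CPM in knockout libraries and 897 ± 63.7 CPM in wild-type libraries (-1.96 ± 0.05), and EREG, the EGF receptor ligand epiregulin, 52.3 ± 1.34 and 132 ± 8.25 CPM (-1.34 ± 0.06). In contrast, HBEGF, another ligand of that receptor, averaged 82.6 ± 6.18 CPM in knockout libraries and 19.1 ± 3.17 CPM in wild-type libraries (2.11 ± 0.10), and the urokinase receptor gene PLAUR 773 ± 29.8 and 121 ± 11.2 CPM (2.67 ± 0.06). The cytokine gene LIF rose (1.17 ± 0.27, adjusted p = 0.00196).

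**Figure D4:**
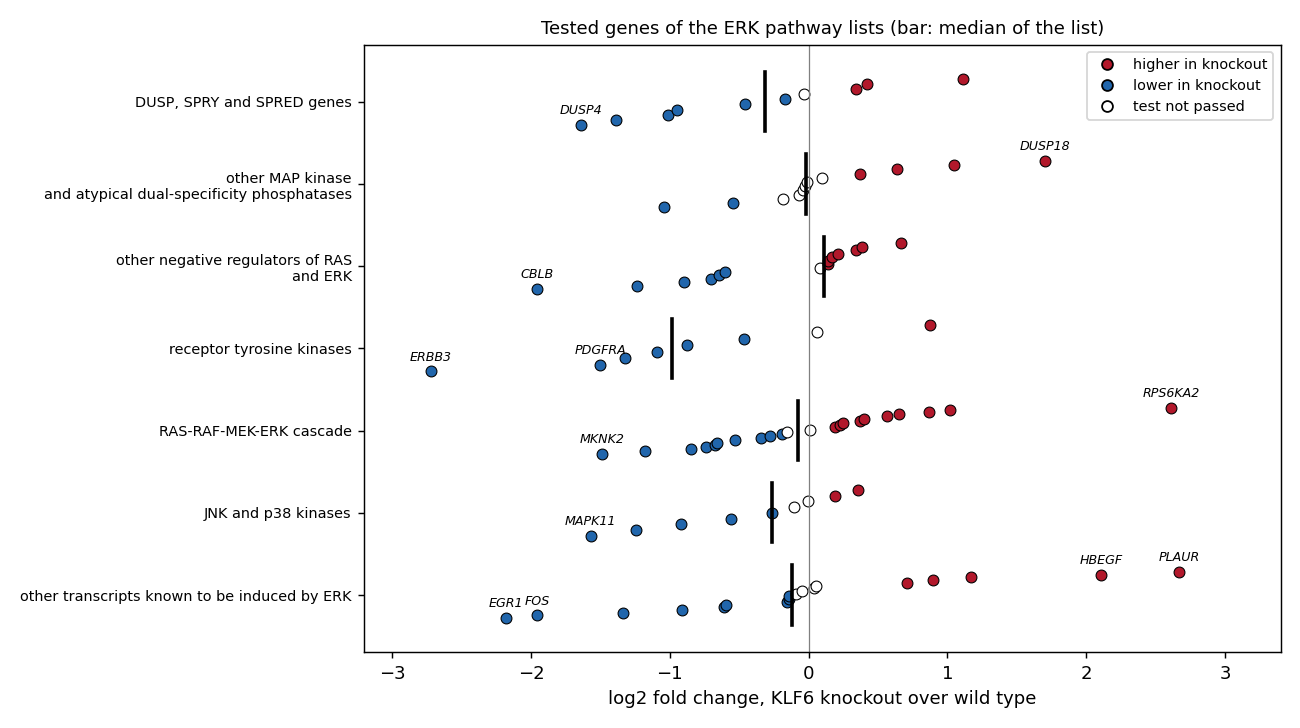
Log2 fold change of KLF6 knockout over wild type of each tested gene (1 point per gene, horizontal axis) in the 10 feedback genes and 6 further lists, with the median of each list as a bar and the genes beyond 1.4 in size named. Points fall on both sides of 0 in every list, and the receptor tyrosine kinases have the lowest median at -0.98.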

How the data were processed

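The 3 KLF6 knockout and 3 wild-type RNA-seq libraries were prepared with an Ion Total RNA-Seq kit, per the labels. The authors deposited raw read counts per gene, and HISAT2 2.0.5 and featureCounts 1.5.0-p3 are named in the submitters' processing notes, with no roles or settings. The sources used here name no build, annotation version or strand setting. The authors also deposited a comparison table with a normalized signal per library, log2 fold changes and p-values with their adjusted values, all up to 0.05. The sources used here do not name the test behind it, and its signal columns were not used. Its log2 fold changes for the feedback genes it lists equal those of DESeq2 run here on the deposited counts.

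Counts were tested with edgeR 4.0.16 (R 4.3.3, limma 3.58.1, DESeq2 1.42.0) using TMM scaling, filterByExpr (minimum count 10, minimum total 15), robust dispersions and the quasi-likelihood test, at a Benjamini-Hochberg adjusted p of 0.05 over all genes tested. All 10 genes passed the filter. Each SE was derived from the test, by dividing the absolute log2 fold change by the root of F, so it adds nothing to the p. Intervals use the fit's degrees of freedom. The tests were tested on simulated counts of the same genes, where edgeR recovered 65 of 67 genes changed 1.5-fold. The simulation changed only a small share of genes, all well counted, and gave every library the same dispersion. In the data 74.6% of genes were called and wild-type replicate 3 stood apart, so that recovery need not hold there. The members and lists were chosen with earlier results of these data known, and the lists were given no test. The text names all 10 genes, KLF6, up to 3 called genes per direction of each list by size of change, and a few cell type markers. Outside that rule, DUSP8, DUSP16, SPRY3, NF1, MAPK8, MAPK9, MAPK14 and MAP2K7 were chosen after their values were seen. So were the markers DCN, COL1A2, VWF, TEK, CDH5, KDR, AIF1, CD68, CIDEC, PLIN1, KRT19 and CDH1. KRT14, KRT18, PECAM1 and COL1A1 were among the defining markers that the rule set.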

Additional observations from a re-analysis of the deposited data

How the results depend on the processing

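The alternatives were other scaling, filters or tests, each library left out, all rows of a symbol summed, and the chromosome median taken away. Of the 160 values of the 10 genes under them, 145 kept their direction, their side of the threshold and, where no test applies, their size within 1 SD. Summing rows repeats the main fit, because no symbol used stood on more than 1 row. Under that setting the value of each of the 10 genes was therefore bound to be kept. When calls were made against a change of 1.5-fold with glmTreat, 2040 genes were higher and 2136 lower among all genes. Of the 10 genes, 1 was then higher and 4 were lower, since DUSP6, DUSP7, SPRED1 and SPRED2 lie under that size. SPRY2, which passed no test, had a log2 fold change of 0.00139 without knockout replicate 2 and 0.00313 without wild-type replicate 1, within a range of -0.0701 to 0.00313 with a library left out. With a library left out, 4746 to 5115 genes were higher, 4746 to 5019 lower, 3 of the 10 genes higher and 5 to 6 lower. With the replicate block, 4938 genes were higher and 4956 lower, with 3 and 6 among the 10. Deviations of same-numbered libraries correlated at -0.04 to 0.07, and those of differently numbered ones at -0.095 to 0.116. No pairing by number was seen, but so few libraries cannot exclude a weak one. The chromosome median gives no count of calls. Among the 10 genes, SPRY4, SPRY1 and DUSP4 had the fewest reads.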

Other observations

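Tested genes within 1 Mb of each of the 10 genes give a view of their surroundings. Around DUSP1, which fell, 8 of 13 neighbours rose and 3 fell (median log2 fold change 0.40). Around DUSP4, which also fell, 6 of 10 rose and 1 fell (median 0.24). Around DUSP5, which rose, 6 of 9 rose and 2 fell (median 0.33). SPRY4 had 7 of 25 neighbours that rose and 11 that fell (median -0.01), and SPRED2 had 2 of 10 that rose and 4 that fell (median -0.17). SPRY1, SPRY2, SPRED1 and DUSP6 had 1 to 5 tested neighbours each, with medians of -0.08, 0.59, 0.11 and -0.07. DUSP7 had 40, of which 17 rose and 10 fell (median 0.13).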
